A study of Homo sapiens with 26 samples.

Results

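Mitosis and spindle genes encode the machinery that condenses the chromosomes, builds the spindle, separates the sister chromatids and divides the cell. A set of 42 such genes was followed through RNA-seq of esophageal squamous cell carcinoma (ESCC) lines in which the chromatin reader BRDT or the transcription factor p63 (gene symbol TP63) had been depleted, or BRDT had been overexpressed. The members were taken by symbol for their known roles and by no rule on their response, although earlier results of these data were known. They had to be present in each of the 5 deposited tables with a table mean of at least 10. All 42 met this, among 26485 symbols per table and 11337 symbols that reached that mean in all 5 tables. By role, 5 members act in mitotic entry, 3 are mitotic kinases, 4 form the chromosomal passenger complex, 4 belong to the spindle checkpoint and 2 activate anaphase. A further 6 act at the centromere and kinetochore, 6 in spindle assembly, 7 in the central spindle and cytokinesis, and 4 in chromosome structure, and FOXM1 is a transcription factor of the division programme.

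The study asked which genes BRDT and p63 control in ESCC, and comprised 26 libraries in 11 groups from 3 established human lines. KYSE180 and TE6 express BRDT, a protein of the BET family that is normally made in the testis and binds acetylated histones, whereas KYSE150 has hardly any BRDT of its own. Cells of the knockdown experiments were harvested 48 hours after transfection with small interfering RNA that was a control (siCont), targeted BRDT (siBRDT) or targeted TP63 (siTP63). In KYSE180, 3 siBRDT libraries were set against 3 siCont libraries, and in a separate experiment 2 siTP63 libraries against 2 siCont libraries. In TE6, 2 siBRDT and 2 siTP63 libraries shared 2 siCont libraries. In KYSE150, 2 siTP63 libraries were set against 2 siCont libraries, and in a separate experiment 3 libraries of cells with plasmid-driven BRDT overexpression (BRDT-OE) against 3 libraries of control cells. The labels name no siRNA sequence, and they do not say whether replicates came from separate cultures, so p-values measure only the spread between these libraries, which may be technical. In bulk RNA, fewer dividing cells and less mitotic RNA per cell cannot be told apart. The study reports no appreciable effect of BRDT depletion on proliferation in KYSE180 and TE6, measured as confluence of cultures and not in these libraries. How that measure relates to the RNA values was not tested.

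As background, the RNA of most of these genes is scarce in resting cells and accumulates as cells approach division, because their promoters are held silent and then activated by cell cycle complexes that contain MuvB, a retinoblastoma-like protein and E2F factors, or MuvB with B-MYB and FOXM1. These complexes act at a promoter element known as the cell cycle genes homology region, while the factor NF-Y acts at nearby CCAAT boxes. The level of mitotic RNA is therefore widely used as a readout of how many cells of a culture are dividing.

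Promoters of 4 members are shown here because the members move together in several comparisons below. The sequences are RefSeq windows on GRCh38.p14, from 250 bases before to 50 bases after the annotated start, on the plus strand in all 4 cases. Capitals mark CCAAT boxes and the homology region on either strand, the latter in its common form TTTGAA and a variant spelled TTCGAA. CDC20, which activates the anaphase-promoting complex, was read at chr1:43358731-43359030, the cyclin gene CCNB1 at chr5:69166900-69167199, the kinase gene PLK1 at chr16:23678639-23678938 and the cyclin gene CCNB2 at chr15:59104896-59105195.
CDC20: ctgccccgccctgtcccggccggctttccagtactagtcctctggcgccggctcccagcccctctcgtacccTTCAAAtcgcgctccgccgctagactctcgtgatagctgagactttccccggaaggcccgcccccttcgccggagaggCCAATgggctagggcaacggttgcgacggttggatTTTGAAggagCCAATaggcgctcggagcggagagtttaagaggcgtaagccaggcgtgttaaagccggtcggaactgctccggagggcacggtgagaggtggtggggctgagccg
CCNB1: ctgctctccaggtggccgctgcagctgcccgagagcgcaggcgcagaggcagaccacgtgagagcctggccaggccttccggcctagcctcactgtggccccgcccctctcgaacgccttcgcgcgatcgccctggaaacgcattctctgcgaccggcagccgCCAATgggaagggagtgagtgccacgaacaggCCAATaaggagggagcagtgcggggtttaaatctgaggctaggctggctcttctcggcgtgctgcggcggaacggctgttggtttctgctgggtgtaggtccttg
PLK1: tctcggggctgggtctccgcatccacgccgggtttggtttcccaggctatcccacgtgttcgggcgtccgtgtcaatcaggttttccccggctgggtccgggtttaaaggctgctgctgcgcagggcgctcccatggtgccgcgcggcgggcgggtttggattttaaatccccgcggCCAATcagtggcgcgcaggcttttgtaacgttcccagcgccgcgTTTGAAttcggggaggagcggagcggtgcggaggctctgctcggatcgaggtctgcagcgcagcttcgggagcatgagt
CCNB2: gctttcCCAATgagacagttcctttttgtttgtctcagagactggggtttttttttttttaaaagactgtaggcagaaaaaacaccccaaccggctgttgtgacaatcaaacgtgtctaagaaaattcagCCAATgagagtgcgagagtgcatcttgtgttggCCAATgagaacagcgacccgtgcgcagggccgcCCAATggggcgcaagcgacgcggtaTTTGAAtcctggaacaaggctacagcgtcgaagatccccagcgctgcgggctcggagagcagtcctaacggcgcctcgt
In PLK1 and CCNB2 the TTTGAA lies at the same distance, 29 to 24 bases before the start. CDC20 holds it 65 to 60 bases before the start, between a pair of CCAAT boxes. A second match in CDC20 lies on the minus strand, 178 to 173 bases before the start and outside that pair, and reads TTCAAA as printed. CCNB1 holds CCAAT at 2 places and neither form of the homology region in this window. RefSeq windows were found for 36 of the 42 members (42 windows, as some genes have several starts). TTTGAA, sought on both strands, was present in 30 of the 42 member windows (71.4%) and in 15.2% of all 35116 promoter windows of this length. TTCGAA was present in 2 member windows (4.76%, against 1.45% of all windows). CCAAT was present in 32 member windows (76.2%, against 34.6%), and CCAAT together with either homology form in 25 (59.5%, against 6.38%). Matches of different motifs were counted independently and could overlap, and a match is a description of the letters only. The windows lack TTK, UBE2C, AURKA, TPX2, FOXM1 and BIRC5.

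Each library held 7582089 to 19372441 reads, recovered from the deposited values. The targeted genes moved as labelled in the libraries where they could be tested. BRDT (chr1:91949343-92014426 on hg38, plus strand) had normalised counts of 1017, 1043 and 1136 in the KYSE180 controls and 132, 147 and 198 after siBRDT, and of 241 and 242 in the TE6 controls and 55 and 46.6 after siBRDT. BRDT-OE raised it from 8.13, 16 and 6.58 to 15871, 15927 and 17542. TP63 (chr3:189631389-189897276, plus strand) fell to 30.6% of the control mean in KYSE180 siTP63 and to 4.57% in TE6 siTP63. In KYSE150 siTP63 its counts were 695 and 729 in the controls and 170.3 and 114 after siTP63, 20% of the control mean, with an adjusted p of 0.082. After siBRDT, TP63 fell by 0.58 ± 0.074 (SE) on the log2 scale in KYSE180 and fell by 1.15 ± 0.12 in TE6. Replicate 1 of TE6 siBRDT stood apart, with 20995 genes above 0 against 16458 to 17569 in the other TE6 libraries. The squamous keratin gene KRT5 was present in every library, but its level moved with treatment. It fell by 1.02 ± 0.072 in KYSE180 siBRDT and by 1.49 ± 0.14 in TE6 siBRDT. In TE6 it measured 15986 and 15150 in the controls and 1513 and 1604 after siTP63. The keratin gene KRT14 measured 244 and 146 in the KYSE150 siCont libraries and 19.1 and 17.3 after siTP63. The squamous marker SFN rose in TE6 siBRDT, by 0.83 ± 0.11. Of 9 markers of leukocytes, endothelium and fibroblasts, PTPRC, CD3E, PECAM1 and DCN stayed under 10 in every library, whereas CD68 and COL1A1 were above 10 in every library. The fibroblast collagen gene COL1A2 measured 164, 122 and 115 in the KYSE180 controls of the siBRDT experiment. In the KYSE180 controls of the siTP63 experiment it measured 1.57 and 2.05. The fibroblast marker LUM measured 15.1 to 31.1 in the TE6 libraries. CD68, a lysosomal gene used as a macrophage marker, fell in KYSE180 siBRDT, TE6 siBRDT, KYSE180 siTP63 and TE6 siTP63. Its log2 fold changes were -1.26, -0.80, -1.73 and -2.26 in that order. The medians of the 42 members were -0.085, -0.52, -1.02 and -1.47 in the same comparisons. In KYSE150 siTP63, with a member median of -0.86, CD68 measured 511 and 443 in the controls and 430 and 455 after siTP63. The collagen gene COL1A1 fell upon BRDT-OE, at -0.90. The part of these markers in the members' results was not tested.

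A gene was called changed at a Benjamini-Hochberg adjusted p under 0.05 over all genes tested in limma if the log2 fold change also reached 0.5 in either direction, on log2(normalised count + 1), a scale that slightly understates changes of low genes. By their medians the members were lower upon TP63 depletion in all 3 lines and upon BRDT depletion in TE6, and near 0 in KYSE180 siBRDT and KYSE150 BRDT-OE. The median log2 fold change of the 42 members was -0.085 in KYSE180 siBRDT, -0.52 in TE6 siBRDT, -1.02 in KYSE180 siTP63, -1.47 in TE6 siTP63, -0.86 in KYSE150 siTP63 and 0.12 in KYSE150 BRDT-OE. Medians over all genes tested lay between -0.039 and 0.017 in the same comparisons. The number of members with a lower value in treated than in control libraries on average was 30, 35, 40, 42, 42 and 15 in that order. At an unadjusted p under 0.05 in limma, 3 members were higher in KYSE180 siBRDT, 2 in TE6 siBRDT and 0 in each siTP63 comparison. Of all genes, 30.9% were higher by this criterion in KYSE180 siBRDT, 25.2% in TE6 siBRDT, 30.3% in KYSE180 siTP63, 27.5% in TE6 siTP63 and 8.67% in KYSE150 siTP63. By the call limits edgeR and DESeq2 called 0 members higher in any knockdown. Summed, the 42 genes took 0.670 and 0.708% of the TE6 control libraries, 0.457 and 0.493% of the siBRDT libraries and 0.242 and 0.245% of the siTP63 libraries.

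**Figure D1:**
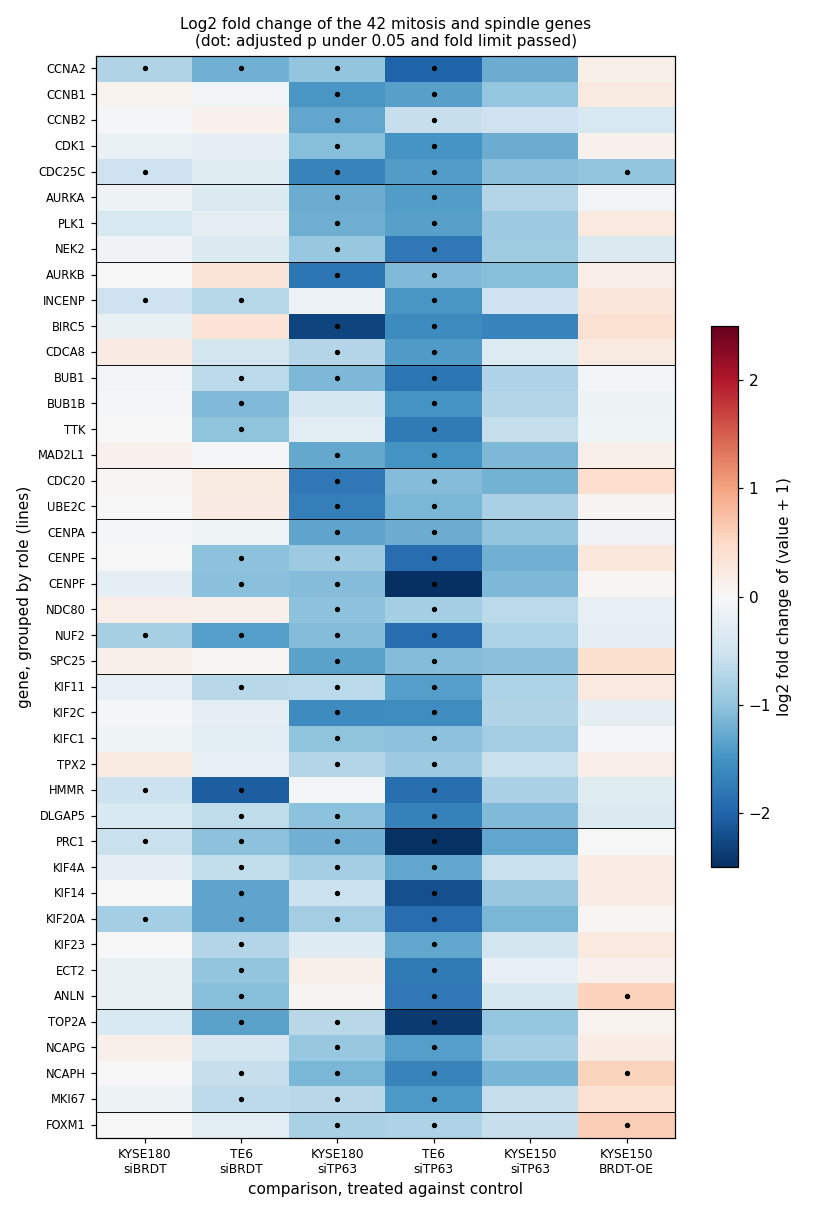
Log2 fold change of each of the 42 members (vertical axis, grouped by role) in the 6 comparisons of treated with control libraries (horizontal axis), with a dot where the gene passed the adjusted p of 0.05 and the fold limit. The TE6 siTP63 column carries a dot for all 42 members, the KYSE150 siTP63 column none.

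**Figure D2:**
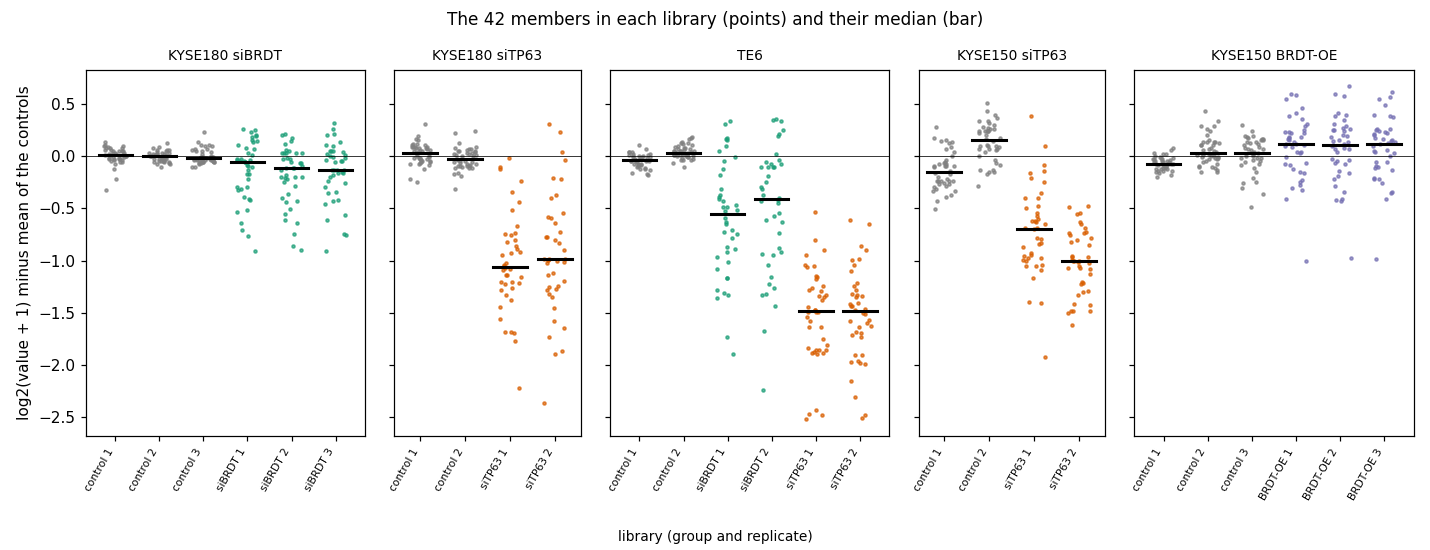
Log2(normalised count + 1) of each member (points) minus the mean of its controls, with the median over the 42 members (bar), for each library of the 6 comparisons. Medians of the siTP63 libraries lay between -1.48 and -0.69, and those of the BRDT-OE libraries between 0.11 and 0.12.

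Upon BRDT depletion in KYSE180, 7 of the 42 members fell and 0 rose, and the other 35 were not called. Of all 13589 genes tested, 15.8% fell and 14.5% rose, so the members' share of falls was close to that of all genes. The members that fell came from mitotic entry, the passenger complex, the kinetochore, spindle assembly and the central spindle, and their folds were moderate, from -0.51 to -0.86 on the log2 scale.

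CCNA2 encodes cyclin A, which partners CDK in S phase and mitotic entry. Its normalised count was 2089.9, 1951 and 1910.5 in the control libraries and 1168, 1184 and 1182 after siBRDT. The groups did not overlap, and CCNA2 fell by 0.75 ± 0.062 (SE) on the log2 scale (adjusted p = 1.2e-07). NUF2, a subunit of the NDC80 complex that ties microtubules to kinetochores, measured 794, 781 and 760.1 in the controls and 475, 427 and 414 after siBRDT. It stood clearly apart between the groups and fell by 0.83 ± 0.076 (adjusted p = 3.4e-07). KIF20A (chr5:138178719-138187723, plus strand) encodes a kinesin of the central spindle that is needed for cytokinesis, and it showed the largest fall. Its counts were 1546, 1612 and 1571 in the controls and 839, 843 and 934 after siBRDT, with every treated library at about the same level and far under every control. KIF20A fell by 0.86 ± 0.066 (SE) on the log2 scale, to 55.3% of the control mean.

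PRC1, the protein that bundles the microtubules of the central spindle, fell by 0.55 ± 0.059, from 2016, 2112 and 2020.3 to 1414, 1393 and 1389. HMMR, a spindle protein also known as a hyaluronan receptor, fell by 0.54 ± 0.077, from 693, 654 and 719 to 480.1, 441 and 501. INCENP, the scaffold of the chromosomal passenger complex, fell by 0.52 ± 0.072, from 1266, 1318 and 1214 to 811, 893 and 947. For these 3 genes the spread within a group was small against the distance between groups. CDC25C, the phosphatase that activates CDK1, was close to the limit, at -0.51 on the log2 scale. It measured 258, 229.8 and 218 in the controls and 191, 153 and 153 after siBRDT.

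Several partners of these genes lay closer to their controls. In the passenger complex, AURKB, the catalytic kinase bound by INCENP, stood at 99.2% of the control mean, and BIRC5, which encodes survivin, at 88.2%. In the NDC80 complex, NDC80 stood at 113% and SPC25 at 110%, while NUF2 was at 56.4%. Among the cyclins, CCNB1 stood at 107% and CCNB2 at 97.5% of control. None of these partners was called, which does not show that they were equal between groups, and the difference between a called gene and its partners was not tested.

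Small differences were resolved in this experiment, which had 3 libraries on each side. Without the fold limit, 15 members were lower and 2 higher at an adjusted p under 0.05, while 29.8% of all genes were lower and 28.6% higher by this criterion. The 8 added members with lower values were PLK1, BIRC5, KIF11, DLGAP5, KIF4A, ECT2, ANLN and TOP2A, and the 2 higher were CDCA8 and TPX2. PLK1, a kinase of mitotic entry and spindle assembly, measured 2303, 2366 and 2282 in the controls and 1858, 1723 and 1723 after siBRDT, 76.3% of the control mean. Its treated libraries all lay under the controls. TPX2, which activates Aurora A on the spindle, measured 2945, 2958 and 2872 in the controls and 3490.3, 3388 and 3377 after siBRDT, 117% of the control mean. Equal upper quartiles of the nonzero values in place of the deposited scaling left 3 members called lower, against 1871 of all genes. Those of the tested genes left 5, against 2016.

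BRDT depletion in TE6 was followed by lower values over a larger share of the set, with 21 of 42 members called lower and 0 higher. Of all 13333 genes tested in TE6, 18.1% fell and 15.6% rose. By role, all 7 central spindle genes fell, as did 3 of 4 checkpoint genes, 3 of 6 kinetochore genes, 3 of 6 spindle assembly genes and 3 of 4 chromosome structure genes. In mitotic entry CCNA2 alone was called (1 of 5) and in the passenger complex INCENP alone (1 of 4). None of the 3 mitotic kinases, the 2 anaphase activators or FOXM1 was called. The longest transcripts of the central spindle genes have 3095 to 7291 nucleotides, and those of the anaphase activators 914 and 1777. The uncalled PLK1 and FOXM1 have 4135 and 3552. Fold changes moved with length in TE6, as given below, and the part of length in this pattern by role was not tested.

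The central spindle genes build the midzone between the separating chromosomes and pinch the cell in. PRC1 (chr15:90966040-90995629, minus strand) measured 4215 and 4292 in the TE6 controls and 1697 and 2556 after siBRDT. Replicate 1 was lower than replicate 2 after siBRDT, and both lay far under both controls. PRC1 fell by 1.03 ± 0.15 (adjusted p = 0.00017). KIF20A measured 2473 and 2635 in the controls and 769 and 1351 in the treated libraries, 41.5% of the control mean after siBRDT. KIF14, a kinesin that recruits citron kinase to the midbody, measured 419 and 499 in the controls and 233 and 142 after siBRDT and fell by 1.32 ± 0.23. ANLN (chr7:36389821-36453791, plus strand) encodes anillin, a scaffold of the contractile ring. It measured 1690.5 and 1999 in the controls and 869.6 and 890.0 after siBRDT, with treated libraries that nearly coincided, and fell by 1.06 ± 0.12. The other 3, KIF4A, KIF23 and ECT2, stood at 66%, 60.5% and 52% of their control means. ECT2, the exchange factor that activates RhoA at the equator, differed between replicates, with 1567 and 974 after siBRDT.

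HMMR (chr5:163460203-163491941, plus strand) showed the largest fall of all members. Its counts were 507 and 646 in the controls and 153 and 121 after siBRDT, and both treated libraries lay far under both controls. HMMR fell by 2.07 ± 0.17 (SE) on the log2 scale (adjusted p = 3.4e-06), to 23.8% of the control mean. NUF2 fell by 1.37 ± 0.13, from 866 and 1000.0 to 375 and 344. CENPF (chr1:214603185-214664574, plus strand), a large protein of the outer kinetochore, measured 2454 and 2546 in the controls and 1116 and 1309 after siBRDT, and fell by 1.05 ± 0.11. CENPE, the kinetochore kinesin that carries chromosomes to the metaphase plate, measured 456 and 574 in the controls and 276 and 229 in the treated libraries and fell by 1.02 ± 0.16. The remaining 3 kinetochore genes were near their controls, with CENPA at 92%, NDC80 at 108% and SPC25 at 104%.

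In the spindle checkpoint, which holds anaphase until all chromosomes are attached, BUB1B fell by 1.11 ± 0.12, TTK fell by 1.00 ± 0.18 and BUB1 fell by 0.67 ± 0.13. BUB1 measured 1451 and 1637 in the controls and 942 and 997 after siBRDT. The fourth checkpoint gene, MAD2L1, stood at 98.3% of the control mean and its groups overlapped. Among genes of chromosome structure, TOP2A, the topoisomerase that untangles sister chromatids, measured 6206 and 6949 in the controls and 2566 and 2616 after siBRDT. It fell by 1.34 ± 0.1. MKI67, which encodes the Ki-67 antigen that coats mitotic chromosomes, measured 1830.3 and 1808 in the controls and 1100.5 and 1222 in the treated libraries and fell by 0.65 ± 0.1. The condensin subunit NCAPH measured 1025 and 1009.5 in the controls and 558 and 828 in the treated libraries, with an uneven pair of treated libraries, and fell by 0.58 ± 0.16.

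CCNA2 measured 1668 and 1788 in the TE6 controls and 768 and 739 after siBRDT, and it fell by 1.20 ± 0.12. Its co-members of mitotic entry lay nearer to the controls, with CDK1 at 85%, CCNB1 at 95% and CCNB2 at 108% of the control mean. BIRC5 (chr17:78214186-78225636, plus strand) measured 3097 and 3124 in the controls and 3925 and 3977 after siBRDT, so that both treated libraries lay above both controls. AURKB showed the same order, with 1995 and 1896 in the controls and 2402 and 2467 after siBRDT. Also CDC20 and UBE2C had both treated libraries above both controls, at 116% and 116% of the control mean, and none of these 4 genes reached the fold limit. In all, both siBRDT libraries lay under both controls for 32 members, above both controls for 4, and overlapped them for 6, while 37.3% of all genes lay under and 34.5% above both controls.

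The counts moved with the choice of scaling. Equal upper quartiles of the nonzero values moved the median of all genes from -0.039 to 0.24. Then 10 members were called lower and 2 higher, while all genes went from 2419 lower and 2074 higher to 586 and 2712. An alternative chosen after seeing the data was equal upper quartiles of the tested genes. It left 21 members lower and 0 higher, and 2186 and 2250 of all genes. The median of the members was -0.56 in siBRDT replicate 1, the library with the many genes above 0, and -0.41 in replicate 2.

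The siBRDT effects of the 2 lines were compared as a difference of fold changes, each taken within its own table. For 16 members the log2 fold change was lower in TE6 than in KYSE180, and for 1 member it was higher, while 17.9% of all 12612 genes tested were lower and 15.1% higher. HMMR differed most, by -1.53 ± 0.17 (SE). KIF14 differed by -1.34, BUB1B by -1.07, CENPE by -1.02 and TTK by -0.99, while in KYSE180 siBRDT these genes stood at 102%, 97.2%, 100% and 98.9% of control in that order. BIRC5 was the member with the higher fold change in TE6, by 0.53 ± 0.12, since it stood at 127% of control in TE6 and at 88.2% in KYSE180. Of the 7 members that fell in KYSE180, 6 also fell in TE6, which were 85.7% of the KYSE180 calls and 28.6% of the 21 TE6 calls. Those 6 were CCNA2, INCENP, NUF2, HMMR, PRC1 and KIF20A. Across the 42 members the fold changes of the 2 lines had a Pearson correlation of 0.57, as a description over genes of libraries that were not shared. Under equal upper quartiles of the nonzero values 7 members were lower in TE6 and 1 higher, against 698 and 2194 of all genes. Under those of the tested genes the counts were 16 and 1, against 2169 and 1929.

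Depletion of p63 in KYSE180 lowered most of the programme. Of the 42 members 35 fell and 0 rose, while 25.7% of all 13924 genes tested fell and 23.6% rose. The median log2 fold change was -1.02 over the members and 0.00064 over all genes. All members of mitotic entry, the mitotic kinases, the anaphase activators, the kinetochore and chromosome structure fell, as did FOXM1. Of the passenger complex 3 of 4 fell, of spindle assembly 5 of 6, of the central spindle 4 of 7 and of the checkpoint 2 of 4.

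Survivin and its kinase led the list. BIRC5 measured 11209 and 9603 in the KYSE180 controls of this experiment and 2232 and 2009.9 after siTP63. The treated libraries were close together and far under the controls, and BIRC5 fell by 2.29 ± 0.15 (SE) on the log2 scale (adjusted p = 5.1e-12). AURKB measured 5203 and 4482 in the controls and 1415 and 1321 after siTP63, and fell by 1.82 ± 0.14. CDC20, the activator of the anaphase-promoting complex whose promoter is printed above, measured 9622 and 7639.6 in the controls and 2646 and 2310.2 in the treated libraries and fell by 1.79 ± 0.15. UBE2C, the ubiquitin-conjugating enzyme that works with that complex, measured 4279.9 and 4781 in the controls and 1409 and 1365 in the treated libraries and fell by 1.71 ± 0.14. These 4 genes, with the largest falls in KYSE180 siTP63, were the 4 with both treated libraries above the controls in TE6 siBRDT.

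The entry genes fell together, with log2 fold changes of -1.67 ± 0.16 for CDC25C, -1.45 ± 0.14 for CCNB1, -1.29 ± 0.14 for CCNB2, -1.05 ± 0.14 for CDK1 and -0.99 ± 0.14 for CCNA2. CDC25C measured 459 and 508 in the controls and 149.6 and 153 after siTP63. CCNA2 measured 1184 and 1305 in the controls and 587 and 667 in the treated libraries, with no overlap. Among kinetochore genes SPC25 fell by 1.34 ± 0.16, CENPF fell by 1.09 ± 0.14 and NUF2 fell by 1.09 ± 0.14. CENPF measured 2076 and 1909.6 in the controls and 866 and 1005 after siTP63. PRC1 measured 1340.1 and 1452 in the controls and 598 and 609 in the treated libraries and fell by 1.21 ± 0.14, the largest fall of the central spindle genes. TOP2A measured 3764 and 3878 in the controls and 2156 and 2623 in the treated libraries and fell by 0.68 ± 0.15. MKI67 measured 3079.8 and 2813 in the controls and 1772 and 1885 in the treated libraries and fell by 0.69 ± 0.14, and FOXM1 fell by 0.81 ± 0.15 from 2701 and 2068 to 1302 and 1385.

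The 7 members that were not called were INCENP of the passenger complex, HMMR of the spindle, the checkpoint genes TTK and BUB1B, and the central spindle genes ANLN, ECT2 and KIF23. HMMR measured 256 and 257 in the controls and 235 and 263 after siTP63, and its groups overlapped. ANLN measured 1098 and 942 in the controls and 949 and 1190.1 in the treated libraries, and ECT2 measured 1132 and 1152 in the controls and 1130.5 and 1411 in the treated libraries. In both, treated replicate 1 was within or under the range of the controls and replicate 2 above it. KIF23, the kinesin of the centralspindlin complex, stood at 80.1% of the control mean, TTK at 81.9%, BUB1B at 73.7% and INCENP at 88.9%. INCENP overlapped because its controls were uneven, at 722 and 469. Equal upper quartiles moved the median of all genes from 0.00064 to 0.22 here, and 31 members were called lower, against 2556 of all genes.

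In TE6, p63 depletion lowered every member of the set. All 42 fell, with log2 fold changes from -2.50 to -0.58, whereas 20.6% of all 13333 genes tested fell and 18.3% rose. For each of the 42, both siTP63 libraries lay under both controls, as they did for 40.7% of all genes.

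CENPF measured 2454 and 2546 in the TE6 controls and 435 and 448 after siTP63. The replicates were close on both sides, and CENPF fell by 2.50 ± 0.11 (SE) on the log2 scale (adjusted p = 1.2e-08), to 17.7% of the control mean. PRC1 measured 789 and 747 after siTP63, against 4215 and 4292 in the controls, and fell by 2.47 ± 0.15, to 18.1%. TOP2A measured 1181 and 1327 and fell by 2.39 ± 0.1. These 3 genes kept the smallest shares of their control means. KIF14 measured 81.6 and 121 after siTP63, low but well above the floor of 3 reads, and fell by 2.19 ± 0.23. CCNA2 also fell, with counts of 482 and 388 after siTP63, 25.2% of the control mean. NUF2 fell by 1.91 ± 0.13, CENPE fell by 1.91 ± 0.16 and KIF20A fell by 1.90 ± 0.19.

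HMMR, ECT2 and ANLN, which were not called in KYSE180 siTP63, fell strongly here. HMMR measured 155 and 152 against 507 and 646 in the controls and fell by 1.89 ± 0.17. ECT2 fell by 1.76 ± 0.18 and ANLN fell by 1.79 ± 0.12, with ANLN counts of 506 and 559 after siTP63. The checkpoint genes fell by 1.81 ± 0.13 for BUB1, 1.76 ± 0.18 for TTK and 1.49 ± 0.12 for BUB1B. BIRC5 fell by 1.57 ± 0.091, with counts of 1042 and 1045, and MKI67 fell by 1.44 ± 0.1, with counts of 667 and 672. The smallest falls were those of CCNB2 at -0.58 ± 0.1, FOXM1 at -0.77 ± 0.12, NDC80 at -0.85 ± 0.13 and TPX2 at -0.90 ± 0.11. CCNB2 measured 2051 and 2152 in the controls and 1446 and 1375 after siTP63, so that even the smallest change left the groups apart.

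Both TE6 knockdowns were set against each other directly, without the controls they share. The siBRDT libraries were higher than the siTP63 libraries for 40 of the 42 members and lower for 0, with a median difference of 0.96 on the log2 scale. Of all genes 14.3% were higher and 14.1% lower in the same contrast. BIRC5 differed most, by 1.92 ± 0.091 (SE), with 3925 and 3977 in the siBRDT and 1042 and 1045 in the siTP63 libraries. MAD2L1 differed by 1.45 ± 0.16 and CENPF by 1.45 ± 0.11. The 2 members not called were HMMR, with 153 and 121 against 155 and 152, and BUB1B, with 678 and 851 against 589.8 and 576. The difference of HMMR was -0.17, with a 95% interval from -0.54 to 0.19, and that of BUB1B was 0.38, with an interval from 0.12 to 0.64.

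In KYSE150, p63 depletion gave lower values over the set, but no gene passed the limma test. Without a replicate block, the limma test called 0 of 42 members lower and 0 higher, as it called 0% of all 12335 genes lower and 0% higher. The lowest adjusted p was 0.11 among members and 0.08 among all genes. At an unadjusted p under 0.05, 32 members were lower, while 9.12% of all genes were lower by this criterion. Both treated libraries lay under both controls for 37 of 42 members and for 24.6% of all genes. The edgeR test on recovered reads called 0 members and 0 genes in all. DESeq2 called 16 members lower, against 2.12% of all genes, and limma with the length and GC trend removed called 20, against 3.67%, so the count rests on the test and model. Deviations of same-numbered control and siTP63 libraries from their group means correlated at -0.70, and those of opposite-numbered libraries at 0.70. The labels do not say what the replicate numbers stand for, so a swap of numbers in 1 group cannot be checked. With a block that joined opposite numbers, limma called 38 members lower, against 14.4% of all genes.

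The members of largest size were BIRC5 and PRC1. BIRC5 measured 5677 and 4464 in the KYSE150 controls and 1330.4 and 1880.5 after siTP63, 31.7% of the control mean. Its log2 fold change was -1.67 ± 0.26 (SE), with an adjusted p of 0.11. PRC1 measured 1470.1 and 2332 in the controls and 939 and 604 in the treated libraries, a log2 fold change of -1.30 ± 0.33 (adjusted p = 0.15). The controls of PRC1 were themselves uneven, which widens its error. CCNA2 measured 1170.1 and 1626 in the controls and 693 and 494 in the treated libraries, CENPF 6779 and 8966 in the controls and 4090.1 and 3101 in the treated libraries, and KIF20A 1330.5 and 1972 in the controls and 938 and 572 in the treated libraries. In each of these 3 genes control replicate 2 was the highest library and siTP63 replicate 2 the lowest. FOXM1 measured 1933 and 1839.9 in the controls and 1334 and 1214 after siTP63, with tight pairs on both sides.

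ECT2 and ANLN overlapped between the groups. ECT2 measured 714 and 1298 in the controls and 1255 and 552 after siTP63, and ANLN measured 2694 and 4657 in the controls and 3796 and 1778 in the treated libraries. In both genes siTP63 replicate 1 lay above control replicate 1. HMMR, with 369.7 and 749 in the controls and 477 and 188 in the treated libraries, showed the same overlap. The share of the library taken by the 42 members was 0.518 and 0.667% in the controls and 0.408 and 0.294% after siTP63. CDH5, an endothelial cadherin gene, measured 19.3 and 7.07 in these controls and 145 and 82.5 after siTP63 without passing the test. LUM, a fibroblast marker, measured 5.94 and 4.71 in the controls and 28.3 and 17.3 after siTP63, also without passing the test. PECAM1 and PTPRC stayed under 3, COL1A2 and DCN were at 0, and the part of these markers in the result was not tested. Leaving out any 1 library left a group of 1, and the number of members called lower then moved with the library. The median of the members against the control mean was -0.69 in siTP63 replicate 1 and -1.01 in replicate 2.

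BRDT overexpression in KYSE150 changed few members. FOXM1, ANLN and NCAPH rose and CDC25C fell, so that 3 of 42 were called higher and 1 lower, while 10.5% of all 12765 genes tested rose and 16% fell. FOXM1 (chr12:2857680-2877174, minus strand), the factor that switches on many mitotic genes, measured 2279, 2666 and 2422 in the control libraries and 3704, 3894 and 3739 upon BRDT-OE. All treated libraries lay far above all controls, and FOXM1 rose by 0.62 ± 0.074 (SE) on the log2 scale (adjusted p = 8.8e-05). ANLN measured 9309, 11192 and 8227 in the controls and 14240.0, 14335 and 14066 upon BRDT-OE and rose by 0.58 ± 0.1. NCAPH measured 994, 1206 and 1099.5 in the controls and 1599, 1631 and 1599 in the treated libraries and rose by 0.55 ± 0.081. CDC25C measured 565, 534 and 629 in the controls and 285, 291 and 289.7 in the treated libraries and fell by 0.99 ± 0.09 (adjusted p = 1.9e-05).

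Over all genes with enough reads, and for some members below, the control libraries varied more than the treated ones. The chi-square of recovered reads per gene was 7.51, 15.2 and 25 between pairs of controls, and 1.84 to 2.47 between pairs of BRDT-OE libraries. The limma test took a shared spread for both groups. MKI67 measured 6481, 8385 and 4444 in the controls and 8121, 8118 and 8059 upon BRDT-OE, so that the treated libraries fell inside the range of the controls. CENPF measured 18704, 22639 and 14916 in the controls and 18970.0, 19336 and 19135 in the treated libraries, with the same relation. CDC20 stood at 133% of the control mean and SPC25 at 132%, both with every treated library above every control, and neither reached the fold limit. Without that limit 10 members were higher and 7 lower at an adjusted p under 0.05, against 26.1% and 25% of all genes, so both counts were not far from the background. Equal upper quartiles of the tested genes, an alternative chosen after seeing the data, gave 2 members lower and 1 higher, and moved the calls of all genes from 2043 lower and 1343 higher to 2529 and 888.

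The siTP63 effect was compared between lines in the same way as the siBRDT effect. Between TE6 and KYSE180, 21 members had a lower log2 fold change in TE6 and 5 a higher one, while 25.5% of all 12780 genes tested were lower and 27.6% higher. ECT2 differed most, by -1.91 ± 0.25 (SE), followed by ANLN at -1.85 ± 0.19, HMMR at -1.85 ± 0.23, TOP2A at -1.71 ± 0.17 and KIF14 at -1.65 ± 0.31. These 5 genes fell in TE6, and TOP2A and KIF14 also in KYSE180. The 5 members with the higher fold change in TE6 were CCNB2, AURKB, BIRC5, CDC20 and UBE2C, by 0.56 to 0.72, and with the length and GC trend removed AURKB (0.72), CDC20 (0.72) and UBE2C (0.56) turned to -0.18, -0.041 and -0.36. Under equal upper quartiles 22 members were lower in TE6 and 0 higher, with the median of all genes moved from 0.012 to -0.12. Of all genes 2896 were then lower and 2295 higher.

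With KYSE150 the differences were less certain. Between KYSE150 and KYSE180, 0 members were called lower and 0 higher, against 0.849% of all 11891 genes lower and 0.774% higher in limma. At an unadjusted p under 0.05, 6 of 42 members were higher and 0 lower, against 16.4% and 9.97% of all genes, so the higher members were near the background. By the call limits edgeR called 0 members, and DESeq2 called 2 higher, against 5.62% of all genes. Between KYSE150 and TE6, 0 members had a lower and 2 a higher log2 fold change in KYSE150, against 1.66% of all 11645 genes lower and 2.2% higher. These were CDCA8, the passenger complex subunit borealin, at 1.06 ± 0.24, and CENPF at 1.37 ± 0.26. The count moved widely when single libraries were left out, and in some of these fits no member was called. Leaving out a control or siTP63 library left its group with a single library.

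**Figure D3:**
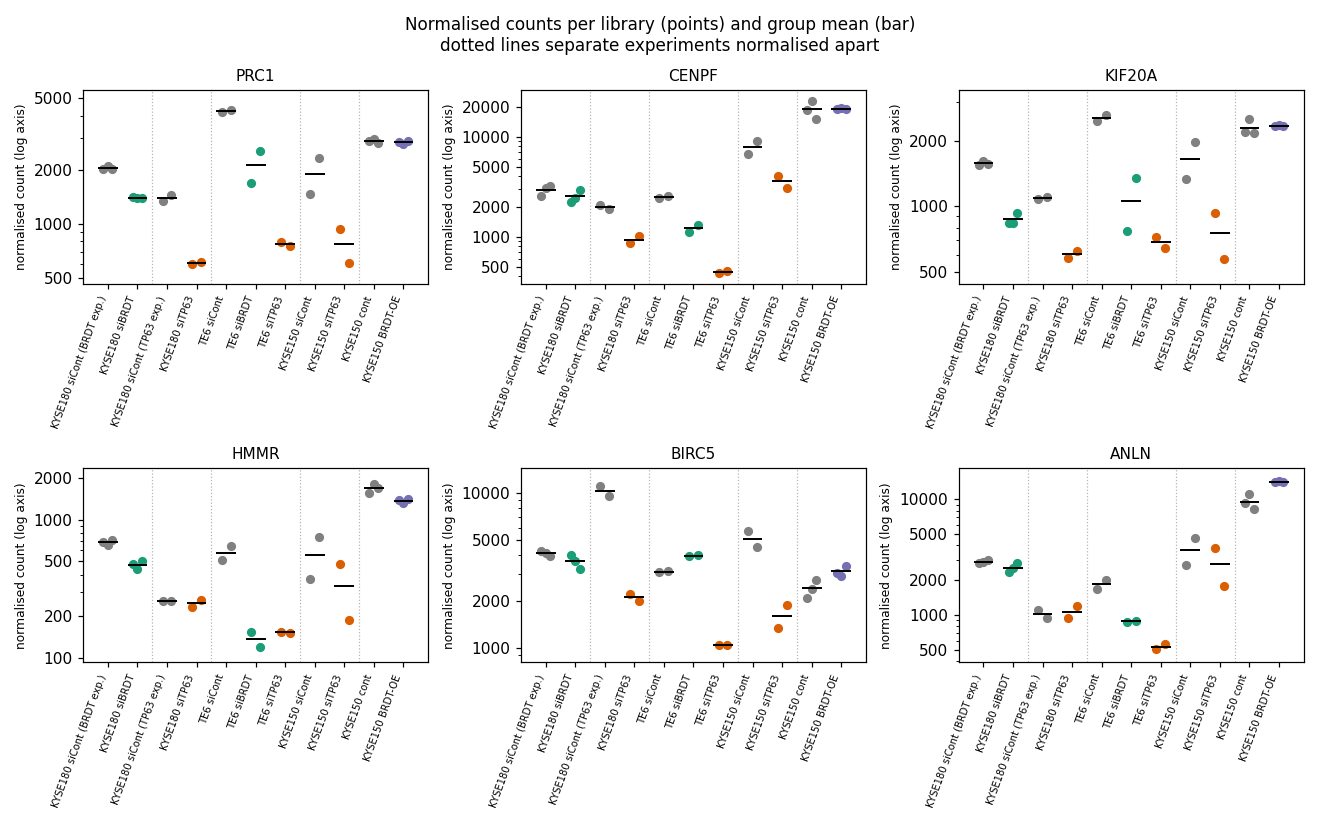
Normalised count (log axis) of selected members in every library (points) with the group mean (bar), where dotted lines separate experiments that were normalised apart. BIRC5 lay lowest after siTP63 in each line and above its controls in TE6 siBRDT, while HMMR was near its controls in KYSE180 siTP63.

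Over the 6 comparisons each member was called in at least 2. In all 23 members were called in 2 comparisons, 13 in 3 and 6 in 4. These counts largely restate the single comparisons, as 42 members were called in TE6 siTP63, 35 in KYSE180 siTP63 and 0 in KYSE150 siTP63. Of all genes, 20.6%, 25.7% and 0% were called lower there. Both TE6 comparisons share their controls, and how often other genes were called was not counted. CCNA2, CDC25C, NUF2, PRC1, KIF20A and NCAPH were the members called in 4 comparisons. CCNA2, NUF2, PRC1 and KIF20A fell in all 4 knockdowns of KYSE180 and TE6. NCAPH fell in TE6 siBRDT and in both of these lines upon siTP63, and it rose upon BRDT-OE. CDC25C fell in both KYSE180 knockdowns, in TE6 siTP63 and upon BRDT-OE.

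The order of the members differed between comparisons that share no library. Across the 42 members, Pearson's correlation of the fold changes was 0.64 between KYSE180 siTP63 and KYSE150 siTP63, 0.325 between TE6 siTP63 and KYSE150 siTP63, and -0.26 between KYSE180 siTP63 and TE6 siTP63. It was -0.70 between TE6 siBRDT and KYSE180 siTP63, so that the genes lowest in one tended to lie highest in the other. Genes within a library share its depth and base composition, and these values are descriptions over 42 genes.

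Transcript length moved with these orders. The longest annotated transcript of the members ranges from 914 to 12716 nucleotides, and its log2 value correlated with the fold change at -0.51 in TE6 siBRDT, 0.47 in KYSE180 siTP63 and -0.48 in TE6 siTP63. Over all tested genes with a length the same correlations were -0.37, 0.28 and -0.20. In KYSE180 siBRDT and KYSE150 siTP63 the members gave -0.048 and 0.096. In TE6 siBRDT, 1 of the 14 shortest members (914 to 2391 nucleotides) fell, against 9 of the 14 of middle length (2503 to 4087) and 11 of the 14 longest (4114 to 12716). In KYSE180 siTP63 the counts were 14, 10 and 11, and in TE6 siTP63 all 14 fell in each class. Median fold changes of the shortest and longest members were -0.18 and -0.71 in TE6 siBRDT, and -1.28 and -0.77 in KYSE180 siTP63.

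**Figure D4:**
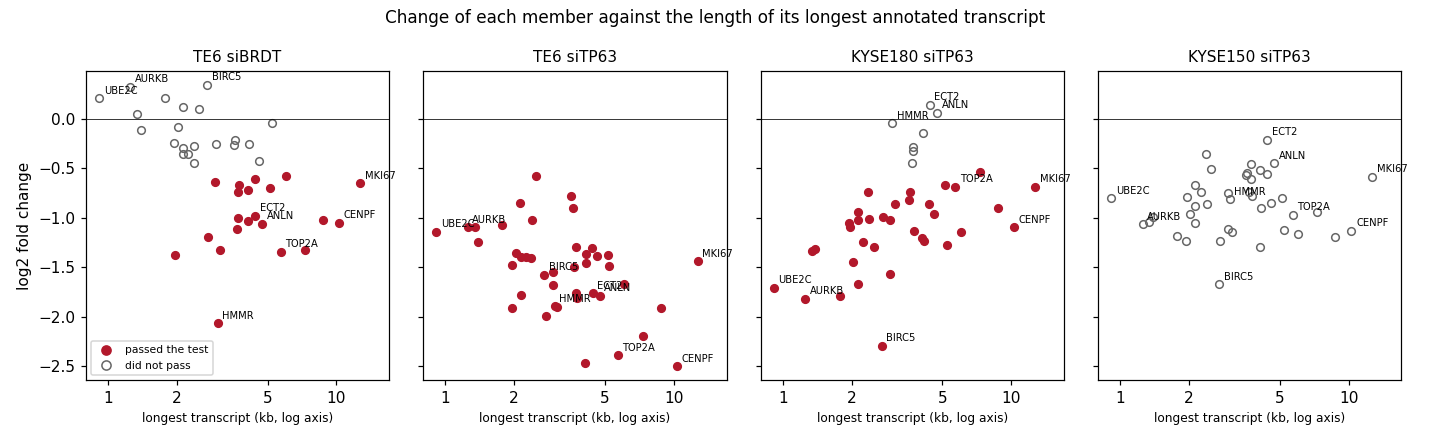
Log2 fold change of each member against the length of its longest transcript (kb, log axis), with filled points for members that passed the test. Longer members lay lower in TE6 siBRDT and TE6 siTP63 and higher in KYSE180 siTP63.

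When a smooth dependence on length and GC content was taken out of each library, 5 of the shortest, 8 of the middle and 7 of the longest members fell in TE6 siBRDT, and the length correlation of the members became -0.12. The counts of members called lower became 20 in TE6 siBRDT, 36 in KYSE180 siTP63, 42 in TE6 siTP63 and 20 in KYSE150 siTP63, where 0 had been called. In the difference of siTP63 effects between TE6 and KYSE180, 18 members were then lower and 1 higher. The part of length or GC content in these results beyond this correction was not tested.

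Per kilobase of transcript, the control levels spanned a wide range. UBE2C, CDC20, CCNB1 and AURKB were among the most abundant members and CENPE and KIF14 among the least. In the TE6 controls UBE2C stood at 3766 ± 3.11 (SD, n = 2) normalised counts per kilobase, CCNB1 at 2043 ± 26.7, CDC20 at 1836 ± 65.9 and AURKB at 1551 ± 55.7. CENPE was lowest, at 58.9 ± 9.50, beside KIF14 at 63.0 ± 7.70, and these neighbours did not differ beyond their spread. In the KYSE180 controls of the siBRDT experiment CDC20 led at 2090.0 ± 48.2 (n = 3) and CENPE closed at 46.7 ± 8.90. In the KYSE150 controls of the overexpression experiment ANLN took the fourth place, at 2024 ± 317 (n = 3). Levels of different experiments come from tables normalised apart and were not tested against each other.

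Genes that work with the members were examined as lists, whose counts are to be read against the shares of all genes that fell, 15.8% in KYSE180 siBRDT, 18.1% in TE6 siBRDT, 25.7% in KYSE180 siTP63 and 20.6% in TE6 siTP63. Of 15 further spindle and cytokinesis genes, 11 fell in TE6 siBRDT, 8 fell and 1 rose in KYSE180 siTP63, and 13 fell in TE6 siTP63, against 1 in KYSE180 siBRDT. CEP55, which recruits the abscission machinery to the midbody, had the lowest log2 fold change of the listed partners in TE6 siBRDT, -1.73 ± 0.12 (SE), with counts from 930.1 and 981 to 287 and 288. Of 15 cohesin and separase genes, which hold and release sister chromatids, 11 fell and 1 rose in TE6 siBRDT, 13 fell in TE6 siTP63, and 5 fell and 2 rose in KYSE180 siTP63. Of 6 further condensin subunits 5 fell and 1 rose in TE6 siBRDT, 4 fell in KYSE180 siTP63 and 5 in TE6 siTP63.

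Of 30 further kinetochore genes, 7 fell and 4 rose in TE6 siBRDT, 21 fell in KYSE180 siTP63, and 20 fell and 1 rose in TE6 siTP63. The small kinetochore genes CENPW and CENPM were at the extremes of the listed partners, each in another line and treatment. CENPW had the lowest fold change in KYSE180 siTP63, -2.46 ± 0.14, with counts from 1974 and 1866 to 367 and 329.7. CENPM had the largest rise in TE6 siBRDT, by 0.87 ± 0.11, from 761 and 704 to 1360.5 and 1313. After siTP63 it measured 594 and 626 in TE6, and in KYSE180 it went from 1920.5 and 1493 to 406 and 328. Of 17 genes of the anaphase-promoting complex and its regulators, 4 fell and 2 rose in TE6 siBRDT, 6 fell in KYSE180 siTP63 and 4 in TE6 siTP63, which is near the shares of all genes. Of 15 further genes of mitotic entry control, 3 fell in TE6 siBRDT, 12 fell in KYSE180 siTP63, and 12 fell and 1 rose in TE6 siTP63.

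The MuvB and E2F regulators, which are known to control promoters of such genes, held calls in both directions. Of 19, 2 fell and 2 rose in KYSE180 siBRDT, 8 fell and 3 rose in TE6 siBRDT, 6 fell and 3 rose in KYSE180 siTP63, 7 fell and 1 rose in TE6 siTP63, and 2 fell and 5 rose upon BRDT-OE. E2F1, a factor of S phase entry, had the largest rise in KYSE180 siBRDT, by 1.35 ± 0.068 (SE), from 428, 454 and 432 to 1090.0, 1138 and 1126. It also rose in TE6 siBRDT, by 0.79 ± 0.1, from 716 and 670.1 to 1178 and 1215. CDKN1A, which encodes the CDK inhibitor p21, fell by 1.32 ± 0.083 in KYSE180 siBRDT, from 541, 545 and 545 to 214, 206 and 234, and stood at 101% of control in TE6 siBRDT. MYBL2, which encodes B-MYB, rose upon BRDT-OE by 0.99 ± 0.081, from 1604, 1910.0 and 1917 to 3609, 3527 and 3622, and fell by 1.16 ± 0.15 in KYSE180 siTP63. LIN9, a core subunit of MuvB, fell by 0.67 ± 0.19 in KYSE180 siTP63 and fell by 0.98 ± 0.17 in TE6 siTP63. RBL2, which encodes the retinoblastoma-like protein p130, rose in KYSE180 siTP63 by 1.17 ± 0.16 and fell by 0.91 ± 0.092 upon BRDT-OE. RBL2 also fell upon BRDT depletion, by 0.67 ± 0.071 in KYSE180 and by 1.28 ± 0.18 in TE6. In TE6 siTP63 E2F7, an E2F repressor, had the lowest fold change, -2.55 ± 0.26, with counts from 145 and 175 to 21.2 and 32.6, and LIN37, a MuvB subunit, the highest, 0.78 ± 0.12.

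Genes of DNA replication, which act in the preceding S phase, served as the nearest neighbour programme. Of 36, 3 fell and 2 rose in KYSE180 siBRDT, 8 fell and 2 rose in TE6 siBRDT, 34 fell in KYSE180 siTP63, 24 fell in TE6 siTP63, 0 were called in KYSE150 siTP63 and 10 rose upon BRDT-OE. Their median log2 fold change was -0.0062 in TE6 siBRDT, where that of the 42 members was -0.52. In KYSE180 siTP63 it was -1.17, beside -1.02 for the members, and in KYSE150 siTP63 -0.92, beside -0.86. In TE6 siTP63 the 2 lists lay further apart, at -0.68 for replication and -1.47 for the members. In KYSE180 siBRDT the medians were 0.023 and -0.085, and upon BRDT-OE 0.34 and 0.12.

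**Figure D5:**
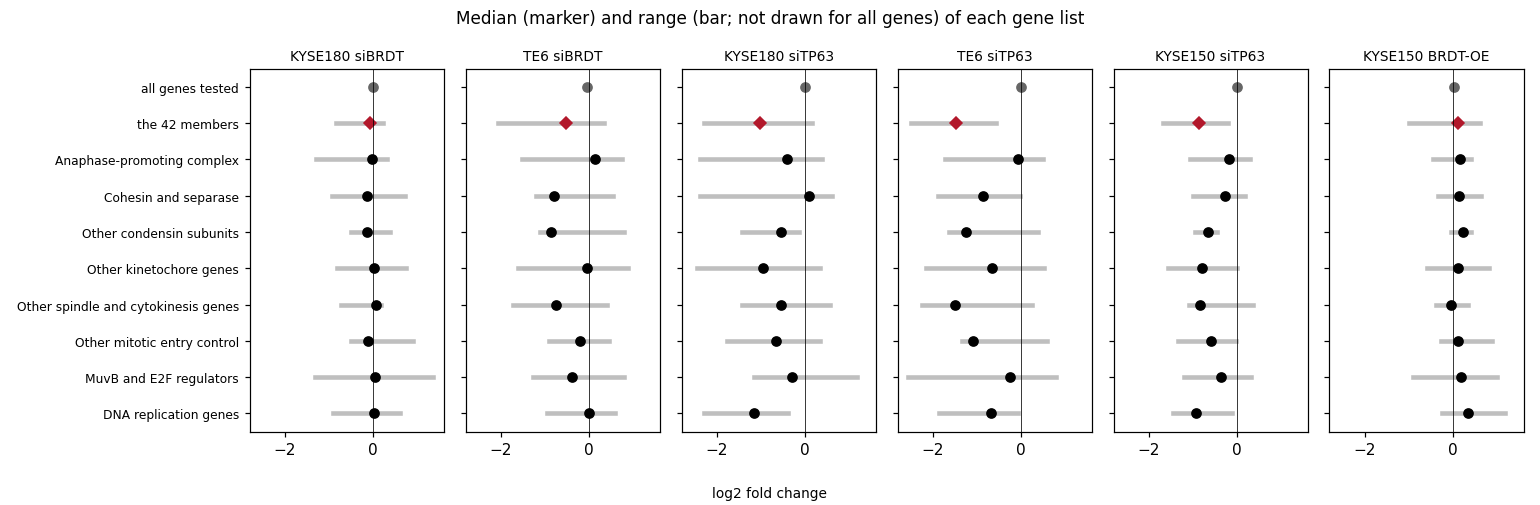
Median log2 fold change (marker) and range (bar, not drawn for all genes) of the 42 members, the partner lists and all genes tested in the 6 comparisons. In TE6 siBRDT the members, cohesin, condensin and spindle lists lay under 0, and the DNA replication list at about 0.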

How the data were processed

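The authors deposited a normalised signal: the count of each gene over the size factor of its library, estimated anew for each of the 5 experiments. Per the study's methods and the submitters' processing notes, reads were mapped to hg38 with STAR (version 2.6.0), counted per gene with HTSeq (0.11.2) and normalised with DESeq2 (1.24.0). The gene annotation, the strand setting and the siRNA behind each library are not given in the sources used here, so reads of overlapping genes on either strand cannot be told apart. All values (100%) were multiples of 1 read of their library to within 0.1 read, which gave totals of 7582089 to 19372441 reads. A count of 0 allows up to 3 reads by counting error, which equals 1.99 to 4.72 normalised counts, and as the reads carry no molecular identifiers this limit covers counting error only.

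The test was limma 3.58.1 (lmFit and eBayes with trend, R 4.3.3) on log2(value + 1), for genes whose mean reached 10 in the fitted libraries, without a replicate block, and with Benjamini-Hochberg adjustment over all genes tested. The 3 TE6 groups shared 1 fit. Calls needed an adjusted p under 0.05 and, as in the study, a log2 fold change that reached 0.5 in either direction. Differences between lines were contrasts of fold changes that were each taken within a table, under the same limits. Recovered reads were also tested with edgeR 4.0.16 (quasi-likelihood) and DESeq2 1.42.0. In KYSE180 siTP63, for example, limma, edgeR and DESeq2 called 35, 34 and 35 members lower. Scripts were tested on simulated data and drawn with Python 3.11.15 and matplotlib 3.10.9. Lengths and GC content came from GENCODE, for 87.5% of symbols and all 42 members. Promoters and their coordinates came from RefSeq, gene positions from GENCODE on hg38.

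The members, roles, partner lists and tests were chosen with earlier results of these data known. Members with values in every library are those called in at least 3 of the 6 comparisons, the called members with the largest rise and fall per comparison and, with none called, the 2 of largest size. Other members are named with single values where a role is described, and were chosen after their values were seen. Of the partners, the largest called rise and fall per comparison and MYBL2, LIN9, E2F1 and CDKN1A are named. Alternatives changed the pseudocount, low-value filter, scaling, fold limit, test, replicate block, length and GC trend, libraries and groups in the fit.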

Additional observations from a re-analysis of the deposited data

Results flagged for a closer look

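Effects of the same treatment that differed between lines, by the limma contrast of the fold changes themselves, were singled out. The siBRDT effect was lower in TE6 than in KYSE180 for 16 members, led by HMMR at -1.53 on the log2 scale, and higher for 1, BIRC5 at 0.53. The siTP63 effect was lower in TE6 than in KYSE180 for 21 members, led by ECT2 at -1.91, and higher for 5, led by AURKB at 0.72. Between KYSE150 and TE6 the siTP63 effect was higher in KYSE150 for 2 members, CENPF at 1.37 and CDCA8 at 1.06. Transcript length moved with these differences, with correlations over the 42 members of -0.59 for the siBRDT effect and -0.60 for the siTP63 effect between TE6 and KYSE180, and 0.54 between KYSE150 and TE6. With that trend and the one on GC content taken out, the same correlations were -0.26, -0.091 and 0.19, and the cause of the differences was not tested.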

How the results depend on the processing

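Counts of members called kept within 1.5 times their value in 179 of the 208 counts made under the alternatives that left out no library. The 208 include counts that were 0 in the main test, such as members higher in each knockdown. They also include TE6 siTP63, where all 42 were called lower, so the figure says little about the other counts. Without the fold limit, 15 members were lower and 2 higher in KYSE180 siBRDT, against 29.8% and 28.6% of all genes. Upon BRDT-OE 7 were lower and 10 higher, against 25% and 26.1%. In TE6 siBRDT 2 were higher, against 2925 of all genes, and in the difference of siBRDT effects 2, against 2445. With equal upper quartiles of nonzero values, 3 members were lower in KYSE180 siBRDT, against 1871 of all genes. In TE6 siBRDT 10 were lower and 2 higher, against 586 and 2712 of all genes. For the difference of siBRDT effects 7 were lower, against 698 of all genes. In the siTP63 differences of TE6 from KYSE180 and of KYSE150 from TE6, 0 were higher, against 2295 and 76 of all genes. With equal upper quartiles of the tested genes, added after seeing the data, 2 were lower and 1 higher upon BRDT-OE, against 2529 and 888 of all genes. In the difference of KYSE150 from TE6, 4 were higher, against 236 of all genes. The counts stayed at 21 lower and 0 higher in TE6 siBRDT, and at 16 lower and 1 higher in the difference of siBRDT effects. DESeq2 called 16 members lower in KYSE150 siTP63, against 2.12% of all genes. In the differences of KYSE150 from KYSE180 and from TE6 it called 2 and 9 higher, against 5.62% and 4.22%. With the length and GC trend removed, 20 were lower in KYSE150 siTP63, against 3.67% of all genes. In the latter differences 2 and 13 were higher, against 4.83% and 5.82%. In the difference of siTP63 effects between TE6 and KYSE180 1 was higher, and in that of siBRDT effects 0. In the same setting the difference of siTP63 effects between TE6 and KYSE180 reversed to -0.18 for AURKB, -0.041 for CDC20 and -0.36 for UBE2C. The cause of these changes was not tested. Over the same alternatives, the single-gene values in the text lost a call in 42 cases and gained one in 7.

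Leaving out 1 library at a time gave 5 to 7 members lower in KYSE180 siBRDT, 18 to 23 in TE6 siBRDT, 34 to 36 in KYSE180 siTP63, 42 in TE6 siTP63 and 1 to 9 in KYSE150 siTP63, and 2 to 4 higher upon BRDT-OE. In the differences, it gave 13 to 18 lower and 0 to 1 higher for siBRDT, 20 to 23 lower and 4 to 5 higher for siTP63 between TE6 and KYSE180, 0 to 1 lower and 0 to 4 higher between KYSE150 and KYSE180, and 0 to 22 higher between KYSE150 and TE6. A group of 2 left with 1 library is then assumed to vary like the other groups. Shares of all genes called in these fits are not given here, so the counts show only how far the calls of members moved.

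The labels name no shared origin of same-numbered libraries, and whether replicate numbers pair the samples was not settled. In the KYSE180 siBRDT experiment deviations of same-numbered libraries correlated at 0.0047 to 0.18, and those of different-numbered libraries at -0.16 to 0.015. In that of BRDT-OE the values were 0.015 to 0.098 and -0.062 to 0.024. With the replicate number as a block, 1 member was called lower in KYSE150 siTP63 and 0 higher in the difference of KYSE150 from TE6, while the counts in KYSE180 siBRDT, TE6 siBRDT, KYSE180 siTP63 and TE6 siTP63 were again 7, 21, 35 and 42. In KYSE150 siTP63 same-numbered libraries correlated at -0.70 and opposite-numbered ones at 0.70. A block that crossed the numbers gave 38 members lower, against 14.4% of all genes. In the difference from KYSE180 it gave 2 lower and 8 higher, against 15.1% and 22.8%, and in that from TE6 25 higher, against 15.7%.

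Every member was above the floor of 3 reads in every library.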
